A study of Mus musculus with 661 samples.

Results

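The VEGF ligands, receptors and neuropilins of mouse bone marrow stroma are described here through 9 genes, chosen by their symbols: the ligands *Vegfa*, *Vegfb*, *Vegfc* and *Pgf*, the receptors *Flt1*, *Kdr* and *Flt4*, and the neuropilins *Nrp1* and *Nrp2*. They are 9 of the 45808 gene symbols in the count table, and each had counts. The study compared single stromal cells from the bone marrow niche of young and old mice by plate-based RNA sequencing. Its 661 cells came from C57BL/6 wild type mice of both sexes, about 2 months old (3 mice, 336 cells) or about 24 months old (4 mice, 325 cells), without treatment. Cells negative for Ter119 and CD45 were sorted as 4 mesenchymal populations, negative for CD31, and 2 endothelial ones, positive for CD31. MSC-L are central marrow cells positive for CD51, PDGFRα and the leptin receptor, and were 53 young and 58 old cells. MSC-S are endosteal cells positive for Sca-1 and CD51, with 59 cells of each age. OPr (44 young, 29 old) and mOPr (26 of each age) are endosteal osteoprogenitors negative for Sca-1 and the leptin receptor, and mOPr carry PDGFRα where OPr do not. AEC, the arteriolar endothelial cells of the endosteum with high Sca-1, were 84 young and 82 old cells, and SEC, the sinusoidal cells of the central marrow with low Sca-1, were 70 young and 71 old cells.

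Vascular endothelial growth factors are secreted dimers that act on receptor tyrosine kinases of endothelial cells. VEGF-A binds VEGFR1 and VEGFR2, VEGF-B and placental growth factor bind VEGFR1, and VEGF-C binds VEGFR3 and, once cut by proteases, VEGFR2. Neuropilins are coreceptors with short cytoplasmic tails that serve both VEGFs and class 3 semaphorins, and in the bone marrow VEGFR2 and VEGFR3 are known from the sinusoids, which need VEGF receptor signals to regrow after injury.

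Total counts per cell ranged from 58034 to 1503374. Each sample is 1 cell and the labels do not say which mouse it came from, so the cells of 1 age and population form 1 sample, no difference below could be checked against replicates, and no test was made. Levels are CPM, nuclear gene counts summed over the cells of a group and scaled to the same total for every group. They have exact Poisson intervals at 95%, and percentages of cells have exact Clopper-Pearson intervals. These intervals cover counting error only, because amplified reads without molecular identifiers are not independent molecules. A cell is counted as carrying a gene at 10 CPM or more. Differences are log2 ratios of CPM after adding 1 CPM, and a gene is called apart at 2-fold or more among genes that reach 100 counts and have them in 5 cells or more. The numbers in the cell titles fall into 3 separate ranges, called library-number ranges here. All SEC were in range 3, the mesenchymal cells in ranges 1 and 2, and AEC in all 3, so SEC and mesenchymal cells share no range, and their difference cannot be told apart from that of the ranges.

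Marker genes showed how far cells fitted their sort. At least 7 of 10 endothelial marker genes were carried by 81 of 84 young and 78 of 82 old AEC and by 69 of 70 young and 66 of 71 old SEC, against 0 of 354 mesenchymal cells. At least 7 of 10 mesenchymal markers were carried by 48 of 53 young and 57 of 58 old MSC-L, 46 of 59 young and 47 of 59 old MSC-S and 24 of 26 young and 23 of 26 old mOPr, but by 12 of 44 young and 8 of 29 old OPr, and by 8 young and 5 old SEC and 2 young and 1 old AEC. In the old OPr, 8 of 29 cells carried at least 7 of 15 hematopoietic markers although CD45 was gated out, against 0 of 44 young OPr.

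*Vegfa* encodes VEGF-A, the main driver of blood vessel growth. Among young cells it measured 197 CPM in MSC-L (interval 191 to 203), 132 in OPr, 62.6 in MSC-S, 51.7 in mOPr, 36.4 in AEC and 34.8 in SEC. Among old cells it measured 168 CPM in mOPr, 162 in MSC-L, 139.5 in OPr, 134 in MSC-S, 64.8 in AEC and 36.3 in SEC (33.8 to 39). The mesenchymal groups thus lay above the endothelial ones apart from young MSC-S and mOPr, which old AEC reached or passed. In the order of the 12 groups the intervals overlapped between old mOPr and old MSC-L, along old OPr, old MSC-S and young OPr, between old AEC and young MSC-S, and along young AEC and both SEC groups. From the lowest to the highest group the level rose 5.65-fold, the narrowest span among the 7 members with counts in every group. The gene was carried by 83% of young MSC-L (70.2% to 91.9%) and 26.2% of young AEC (17.2% to 36.9%).

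*Vegfb* encodes VEGF-B, a ligand of VEGFR1. Its levels were low throughout, from 5.51 CPM in young AEC (4.76 to 6.34) to 50.1 in old SEC (47.1 to 53.2). Young cells had 46.7 CPM in SEC, 26.2 in MSC-L, 17.3 in OPr, 15.3 in MSC-S and 11.0 in mOPr. Old mOPr had 43 CPM, old MSC-L 39.5, old OPr 19.6, old MSC-S 9.47 and old AEC 6.34. SEC of both ages stood at the top and AEC of both ages at the bottom, and neither pair differed beyond its counting intervals. Young SEC, old mOPr and old MSC-L overlapped in turn, as did old OPr, young OPr and young MSC-S, and young mOPr and old MSC-S. In several groups 1 cell held a large part of the counts: 81.3% in old OPr, 54.7% in young AEC and 42.5% in old MSC-L.

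*Vegfc* encodes VEGF-C, the ligand of VEGFR3 that drives lymphatic growth. It was abundant in MSC-L, at 384 CPM in young (376 to 392) and 307 in old cells (299 to 315), and in AEC, at 278 in young (273 to 284) and 305 in old cells (299 to 310). Old OPr had 138 CPM and old mOPr 87.9, where young OPr had 37 and young mOPr 23.9. The remaining groups were low, with 33.9 CPM in young and 20.7 in old MSC-S and 22.3 in young and 39.3 in old SEC. Old MSC-L and old AEC did not differ beyond their intervals, nor did old SEC, young OPr and young MSC-S in turn, nor young mOPr, young SEC and old MSC-S. The high groups also had the most cells with the transcript: 83% of young MSC-L (70.2% to 91.9%), 81% of old MSC-L, 53.6% of young AEC (42.4% to 64.5%) and 61% of old AEC, against 11.4% of young SEC (5.07% to 21.3%).

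*Pgf* encodes placental growth factor, which binds VEGFR1. Old mOPr had 107 CPM (101 to 113), old MSC-L 88.4, old AEC 78.1, young MSC-L 67.5 and young AEC 37.7. Lower levels were measured in young OPr (28.5), old OPr (22.5), young mOPr (21.9), old SEC (12.8), young MSC-S (6.60), old MSC-S (5.79) and young SEC (4.24, interval 3.42 to 5.20). Among these, old OPr and young mOPr overlapped, as did both MSC-S groups and old MSC-S with young SEC. A single cell held most of the counts in several groups: 100% in young mOPr, 98.7% in young and in old MSC-S and 90.6% in old AEC. Without that cell old AEC measured 7.50 CPM. The transcript was carried by 34% of young and 46.6% of old MSC-L and by 42.3% of old mOPr, but by 9.52% of young and 4.88% of old AEC.

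Per kb of merged exon length in the GENCODE M21 annotation, where levels of different genes can be set side by side, *Vegfc* gave 64.7% of the summed level of the 4 ligands in young MSC-L, 57.4% in old MSC-L, 82% in young AEC and 73% in old AEC. *Vegfb* led in SEC, with 60.8% in young and 51.9% in old cells, and *Vegfa* led in MSC-S, with 36.3% in young and 65.7% in old cells. In young MSC-S that lead was narrow, with *Vegfc* at 34.4%. The summed ligand level per kb was highest in young MSC-L, at 242 CPM per kb, followed by old MSC-L at 218 and old AEC at 170.3. It was lowest in young mOPr, at 36.2 CPM per kb, and reached 139 in old mOPr, where *Vegfa* (28.2%), *Pgf* (26.5%), *Vegfc* (25.9%) and *Vegfb* (19.3%) had similar parts. Most MSC-L carried more than 1 ligand: *Vegfa* and *Vegfc* were found together in 36 of 53 young and 38 of 58 old cells, and *Pgf* was found beside them in 12 and 19 of these.

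**Figure D1:**
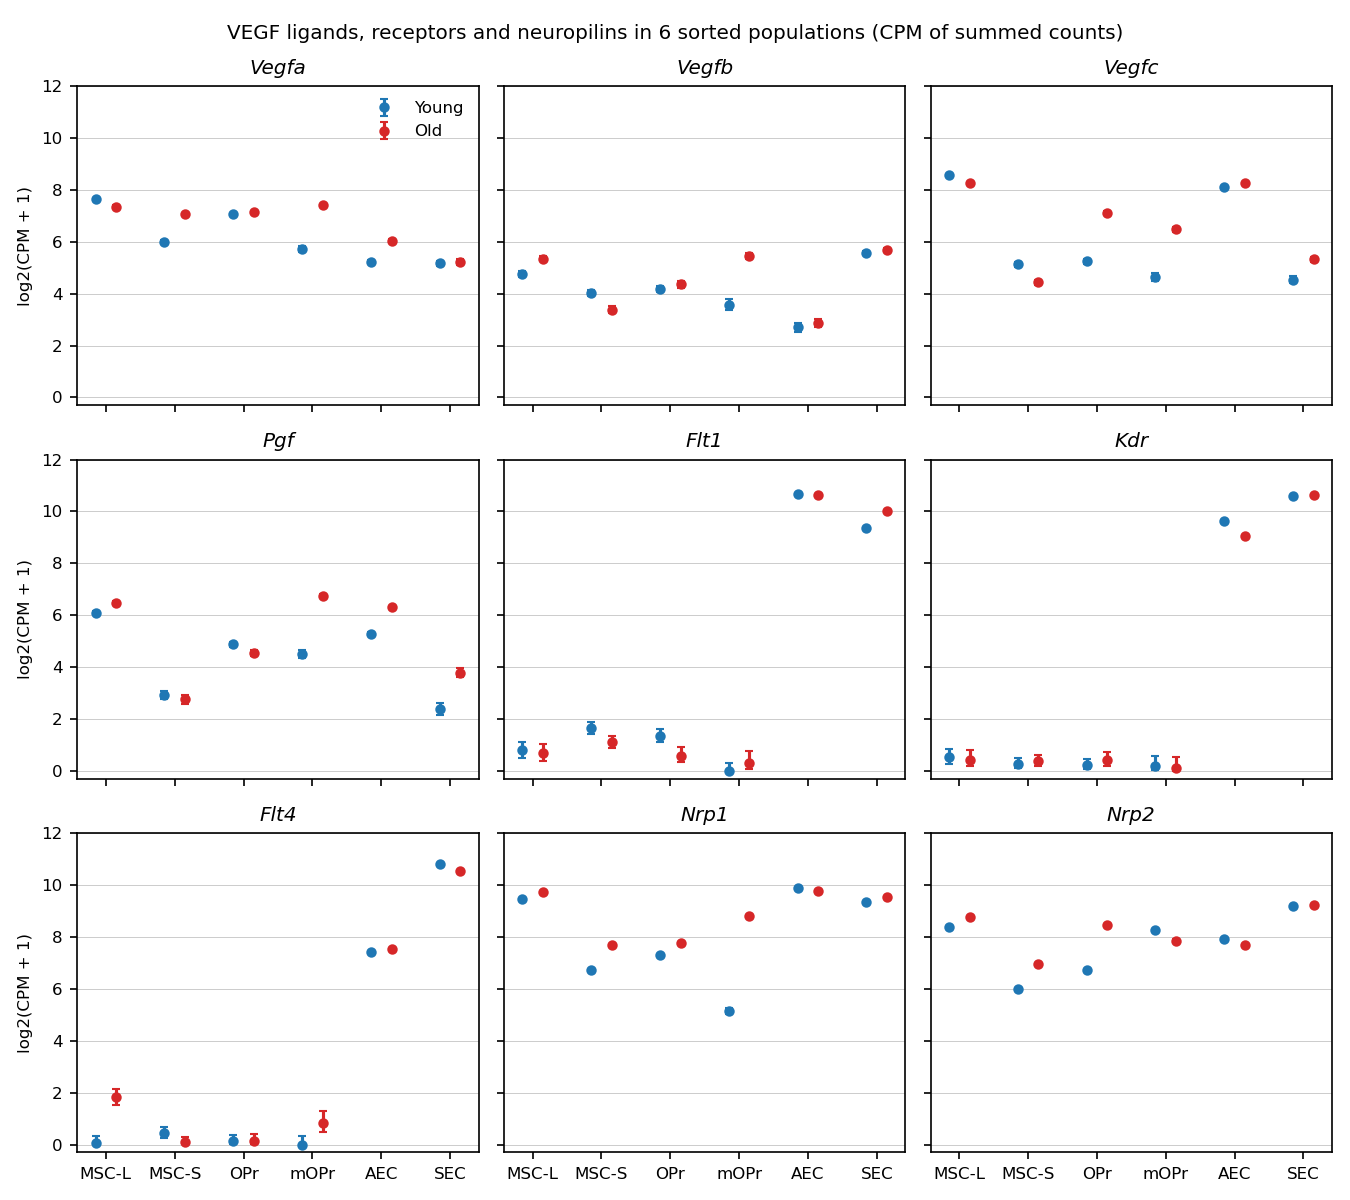
Level of each of the 9 genes in the 6 sorted populations, as log2 of CPM plus 1 (vertical axis), for young (blue) and old (red) cells. Points are CPM of summed counts and bars are exact 95% Poisson intervals; *Flt1*, *Kdr* and *Flt4* are high in AEC and SEC and near 0 in the mesenchymal populations, where the highest value is 2.56 CPM.

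The receptors separated endothelial from mesenchymal cells completely at the level of groups. *Flt1* encodes VEGFR1, a receptor of weak kinase activity that holds back VEGF-A. It measured 1630.5 CPM in young AEC (1617 to 1644), 1576 in old AEC (1563 to 1589), 1042 in old SEC (1028 to 1056) and 662 in young SEC (652 to 673). Medians over cells were 1465 CPM in young AEC, 1437 in old AEC, 710.1 in young SEC and 703 in old SEC, so the SEC of both ages had close medians where the summed levels differed. None of these 4 groups overlapped in their summed level. The mesenchymal groups ranged from 0 counts in young mOPr, an upper limit of 0.253 CPM, to 2.17 CPM in young MSC-S, where 1 cell held 82.7% of the counts, and neighbours among them overlapped.

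*Kdr* encodes VEGFR2, the chief signalling receptor for VEGF-A. In contrast to *Flt1* it was higher in SEC than in AEC: 1581 CPM in old SEC (1564 to 1598), 1535 in young SEC (1519 to 1552), 784 in young AEC (775 to 793) and 531 in old AEC (524 to 539). The intervals of these 4 groups did not overlap. The highest mesenchymal group, young MSC-L, had 0.438 CPM (0.210 to 0.806), and the intervals of neighbouring mesenchymal groups overlapped along the whole order, down to old mOPr at 0.0801 CPM. The gene was carried by 70 of 70 young and 66 of 71 old SEC, by 83.3% of young AEC (73.6% to 90.6%), by 73.2% of old AEC (62.2% to 82.4%) and by 0 of 354 mesenchymal cells, a count that allows a share of up to 1.04%.

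*Flt4* encodes VEGFR3, the receptor of VEGF-C. It was the receptor with the widest gap between the endothelial populations, at 1796 CPM in young SEC (1779 to 1814) and 1480.3 in old SEC (1464 to 1497), against 169 in young AEC (165 to 173) and 186 in old AEC (182 to 191). Here too the 4 groups did not overlap. Median cells had 1636 CPM in young and 1261 in old SEC but 36.4 in young and 23.8 in old AEC, and 64.3% of young AEC (53.1% to 74.4%) carried the gene. Old MSC-L had 2.56 CPM (1.90 to 3.38), with counts in 5 of 58 cells and 62% of them in 1 cell. The other mesenchymal groups lay between 0 and 0.801 CPM, with overlap between neighbours.

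Summed per kb, the 3 receptors reached 437 CPM per kb in young SEC and 432 in old SEC, against 228 in young AEC and 198 in old AEC. *Flt1* made up 52.9% of that sum in young AEC and 11.2% in young SEC, and *Flt4* 8.99% and 49.9%, while the part of *Kdr* was 38.1% and 38.9%. The same contrast appeared cell by cell. *Flt1* was the highest receptor per kb in 57 of 84 young and 60 of 82 old AEC, *Flt4* in 2 and 4 of them. In SEC, *Flt4* was highest in 40 of 70 young cells and 30 of the 70 old cells with a receptor count, *Kdr* in 29 and 31, and *Flt1* in 1 and 9. AEC thus had mainly VEGFR1 and VEGFR2 transcripts and SEC mainly VEGFR2 and VEGFR3 transcripts at both ages.

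*Nrp1* encodes neuropilin 1, a coreceptor of VEGFR2 that also binds semaphorin 3A. Its levels were 935 CPM in young AEC (925 to 945), 879.8 in old AEC, 854 in old MSC-L, 735 in old SEC, 711 in young MSC-L and 642 in young SEC (631 to 653). Below these came old mOPr at 446 CPM, old OPr at 219, old MSC-S at 205, young OPr at 158, young MSC-S at 105 and young mOPr at 34.7 (31.7 to 37.8). MSC-L lay within the range of the endothelial groups and apart from the other mesenchymal ones. No neighbours in this order overlapped in their counting intervals. The gene was carried by 84 of 84 young AEC and 98.1% of young MSC-L, and by 26.9% of young mOPr (11.6% to 47.8%).

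*Nrp2* encodes neuropilin 2, a coreceptor of VEGFR3 that binds VEGF-C and semaphorin 3F. It was highest in SEC, at 607 CPM in old (596 to 618) and 591 in young cells (581 to 601), a pair that did not differ beyond counting error. Old MSC-L had 439 CPM, old OPr 355, young MSC-L 336 and young mOPr 309. Young AEC had 244 CPM (239 to 249.6) and old mOPr 231 (222 to 239), whose intervals met, followed by old AEC at 204, old MSC-S at 123, young OPr at 104 and young MSC-S at 62.1. In old OPr 1 cell held 36.5% of the counts and the median cell had 19 CPM, against medians of 469 in young SEC and 319 in young MSC-L. Per kb, *Nrp1* exceeded *Nrp2* in 10 of 12 groups, and *Nrp2* exceeded *Nrp1* in old OPr, with 57.3% of their sum, and young mOPr, with 88.0%.

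At least 10 CPM of all 5 receptor and neuropilin genes was found in 63 of 70 young SEC (90%, 80.5% to 95.9%) and 54 of 71 old SEC (76.1%, 64.5% to 85.4%), against 38 of 84 young AEC (45.2%, 34.3% to 56.5%) and 25 of 82 old AEC (30.5%, 20.8% to 41.6%). *Nrp1* and *Nrp2* together were found in 48 of 53 young and 51 of 58 old MSC-L, while 53 of all 53 young and 56 of all 58 old MSC-L carried none of the 3 receptors. The neuropilins were thus combined with VEGF receptors in endothelial cells and present without them in MSC-L. This was not particular to MSC-L: 57 of 59 young MSC-S, 43 of 44 young OPr and 26 of 26 young mOPr also carried none of the 3 receptors. Neither neuropilin was carried by 20 of 59 young MSC-S, 16 of 44 young OPr and 10 of 26 young mOPr. Both neuropilins were found together in 6 of 59 young and 19 of 59 old MSC-S and in 5 of 26 young and 15 of 26 old mOPr. Within a group, levels of 2 members over cells were mostly weakly related: of 44 coefficients (Spearman's rho) for 6 pairs of genes, 33 were under 0.3 in size. The largest were those of *Vegfc* with *Nrp1* (0.72) and *Nrp1* with *Nrp2* (0.56) over 29 old OPr and of *Vegfa* with *Vegfc* over 26 old mOPr (0.59), followed by *Kdr* with *Flt4* (0.53) and with *Flt1* (0.48) over 84 young AEC. Over 70 young SEC the last 2 pairs had 0.14 and 0.31. Cells of a group share mice and differ in depth, so these are descriptions.

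**Figure D2:**
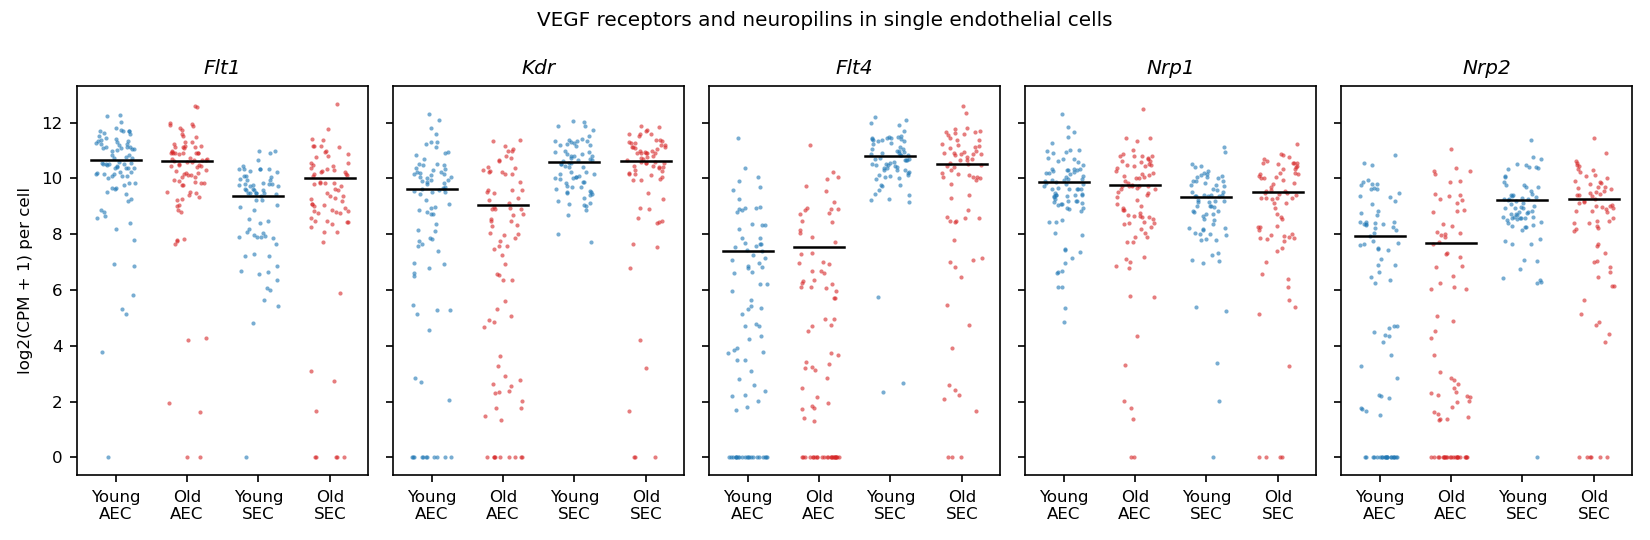
Receptor and neuropilin levels in each AEC and SEC, as log2 of CPM plus 1 (vertical axis), for young (blue) and old (red) cells. Each point is 1 cell and black lines are the CPM of summed counts; the *Flt4* lines stand at 169 and 186 CPM in AEC and at 1796 and 1480.3 CPM in SEC.

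Young endothelial cells (154) were first compared with young mesenchymal cells (182). *Kdr* (1074 against 0.237 CPM), *Flt4* (797 against 0.158) and *Flt1* (1257 against 1.36) were higher in endothelial cells by log2 ratios of 9.76, 9.43 and 9.06, or 11.64, 11.59 and 9.75 after adding 0.1 CPM in place of 1. The neuropilins were higher by less, *Nrp1* at 822 against 247 CPM (log2 ratio 1.73) and *Nrp2* at 378 against 171 (1.14), and *Vegfa* was lower at 35.8 against 111 CPM (log2 ratio -1.61). *Vegfc* (0.67), *Vegfb* (0.26) and *Pgf* (-0.21) were within 2-fold over all ranges. In all, 5 of 9 members were at least 2-fold higher, where 16.8% of all genes were, and 1 of 9 was at least 2-fold lower, where 18% of all genes were. Within library-number ranges 1 and 2, whose endothelial cells were AEC alone, the log2 ratios were 9.58 and 9.40 for *Flt1*, 9.26 and 9.21 for *Kdr*, 6.15 and 7.02 for *Flt4*, 1.97 and 1.90 for *Nrp1*, 0.65 and 0.14 for *Nrp2* and -1.90 and -1.24 for *Vegfa*. There *Vegfc* was also apart upward (1.2 and 1.52) and *Vegfb* downward (-1.88 and -2.63). With median-of-ratios size factors in place of totals, which moved the median over all genes by -0.39 and the part of higher genes among those called apart from 48.3% to 30.9%, *Nrp1* (0.81) and *Nrp2* (0.33) fell inside 2-fold, and *Vegfa* reached -2.32.

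The other genes of the pathway, taken from 7 lists, split in the same comparison. Of 12 regulators of VEGF receptors, 6 were higher and 2 lower in endothelial cells (median log2 ratio 1.05, against 0.07 over all genes), among them *Ptprb*, the phosphatase VE-PTP, at 2028 against 0.602 CPM, and *Cdh5*, the junction protein VE-cadherin, at 660.5 against 0.168. Of 29 VEGF receptor signalling genes that passed the count filter, 10 were higher and 4 lower (median 0.41), with *Nos3*, the endothelial nitric oxide synthase, at 181 against 0.197 CPM and *Prkca* at 8.44 against 51.8. Of 12 endothelial VEGF response genes, 7 were higher and 2 lower (median 1.40). *Dll4*, a Notch ligand of sprouting vessels, had 369 against 0.0691 CPM, while *Esm1*, named for endothelium, had 94.0 in endothelial and 497 CPM in mesenchymal cells. Among 12 neuropilin partners 5 were higher and 5 lower: the semaphorins *Sema3g* (358 against 0.217 CPM) and *Sema3f* (211 against 10.7) and the coreceptor *Plxnd1* (722 against 82.9) were endothelial, and *Sema3c* (0.669 against 238), *Sema3d* (0.0528 against 143) and *Sema3e* (0.123 against 102) mesenchymal. Of 10 genes of VEGF-C maturation 3 were higher and 4 lower. *Ccbe1*, the cofactor that VEGF-C cleavage needs, had 4.19 CPM in endothelial and 57.1 in mesenchymal cells, and *Adamts3*, the protease, 1.16 and 22.4. Of 9 oxygen sensing genes 1 was higher, *Epas1*, which encodes HIF-2α (2618 against 445 CPM), and 1 lower. *Figf*, which encodes the remaining ligand VEGF-D, had 0.317 against 3.87 CPM.

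The comparison of young AEC (84) with young SEC (70) sets arterioles of the bone surface against sinusoids of the marrow. *Vegfc* (278 against 22.3 CPM, log2 ratio 3.58), *Pgf* (37.7 against 4.24, 2.88) and *Flt1* (1630.5 against 662, 1.30) were higher in AEC. *Flt4* (169 against 1796 CPM, log2 ratio -3.40), *Vegfb* (5.51 against 46.7, -2.87) and *Nrp2* (244 against 591, -1.27) were lower. The receptor of VEGF-C and its coreceptor *Nrp2* were thus low in the endothelial population whose *Vegfc* was high. In counts, 3 of 9 members were at least 2-fold higher, where 20.4% of all genes were, and 3 of 9 at least 2-fold lower, where 16.1% of all genes were. *Nrp1* (0.54) and *Vegfa* (0.06) were within 2-fold. *Kdr* (-0.97) lay just inside it, and just past it without cells carrying mesenchymal markers (-1.10), without the highest cell of each side (-1.01) and without cells with few endothelial markers (-1.0). In range 3 alone, with 24 AEC, the ratios were 3.23 for *Vegfc*, 3.66 for *Pgf*, 1.14 for *Flt1*, -2.38 for *Flt4*, -1.43 for *Vegfb*, -0.74 for *Nrp2*, -0.66 for *Kdr* and -2.14 for *Vegfa*, so there the call for *Nrp2* was lost and *Vegfa*, at 7.11 CPM in those AEC, was lower. The mix of the study's clusters differed there: E3 held 3 and E4 4 of those 24 AEC, against 24 and 26 of all 84. The part of that mix in the ratios was not tested. Summed mesenchymal markers were 2566 CPM in young AEC and 6595 in young SEC (10 of 10 with counts in both, *Cxcl12* the most abundant), and without cells carrying 7 or more of them the ratio of *Pgf* was 5.10. Without the highest cell of each side the ratio of *Vegfb* was -3.63. Leaving out the 3 AEC and 1 SEC with fewer than 7 endothelial markers, chosen after seeing the data, gave -3.77 for *Vegfb*.

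In the same comparison, 7 of 12 endothelial VEGF response genes were higher in AEC and 2 lower (median 1.33, against 0.06 over all genes), with *Apln*, a peptide of tip cells, at 45 against 1.28 CPM and *Rcan1*, a calcineurin inhibitor, at 239 against 36.4. *Nos3* was higher at 261 against 53.1 CPM, among 5 of 28 signalling genes that were higher and 1 that was lower, and *Efnb2*, which encodes the arterial ephrin-B2, at 237 against 15.6, among 2 of 12 regulators higher and 2 lower. Of 8 neuropilin partners, 2 were higher, with *Sema3g* at 570 against 20.9 CPM, and 1 lower: *Sema3a*, the semaphorin of neuropilin 1, at 0.918 in AEC and 328 in SEC. Of 9 maturation genes 2 were higher and 3 lower. The protease genes *Plat* (204 against 0.456 CPM) and *Pcsk5* (220.3 against 10.9) were higher in AEC and *Adamts2* (16.8 against 163) lower, and *Ccbe1* had 1.06 and 9.17 CPM. *Sema3a*, *Sema3g*, *Plat*, *Pcsk5*, *Nos3*, *Efnb2*, *Adamts2* and *Ccbe1* are guide genes of the study's endothelial clusters, as are *Vegfb*, *Vegfc* and *Flt4*, so their contrast is partly what those clusters were built on. Of 8 oxygen sensing genes 2 were higher and 1 lower.

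Young MSC-L (53) were compared with the other young mesenchymal cells (129). *Vegfc* stood out at 384 against 33.2 CPM (log2 ratio 3.49), followed by *Nrp1* at 711 against 112 (2.66), *Pgf* at 67.5 against 17.6 (1.88), *Nrp2* at 336 against 124 (1.44) and *Vegfa* at 197 against 86.4 (1.18). *Vegfb* (0.74) was within 2-fold. Of the 7 members that passed the count filter, 5 were at least 2-fold higher, where 22.6% of all genes were, and 0 at least 2-fold lower, where 20.8% of all genes were. *Kdr*, with 24 counts, and *Flt4*, with 16, did not pass. In ranges 1 and 2 the ratios were 2.77 and 4.60 for *Vegfc*, 2.28 and 2.99 for *Nrp1*, 1.72 and 2.28 for *Pgf*, 1.05 and 1.77 for *Nrp2* and 0.51 and 1.36 for *Vegfa*, and *Nrp2* had 0.85 with size factors. The maturation genes split, with 4 of 10 higher and 3 lower (median 0.29, against 0.17 over all genes). *Ccbe1* (172 against 23.7 CPM), *Adamts14* (103 against 19.5) and *Adamts2* (991 against 216) were higher with *Vegfc*, while the plasminogen activators *Plat* (2.46 against 213) and *Plau* (6.05 against 74.6) were lower, and *Adamts3* had 6.36 CPM in young MSC-L and 49.1 in young OPr. Neuropilin partners were 3 higher and 6 lower of 11 (median -2.18): the receptors *Plxnd1* (283 against 24.8 CPM) and *Plxna2* (523 against 70.4) rose with the neuropilins, and the ligands *Sema3c* (1.36 against 307), *Sema3e* (1.36 against 131) and *Sema3d* (2.89 against 184) fell. *Epas1* had 1385 against 173 CPM, among 1 of 9 oxygen sensing genes higher and 1 lower. Of 28 signalling genes 3 were higher and 3 lower, of 10 regulators 1 and 1, and of 9 response genes 2 and 5, with *Esm1* at 1807 against 117 CPM and *Nr4a2* at 2.37 against 251. *Vegfc*, *Nrp1*, *Ccbe1*, *Epas1*, *Esm1*, *Plat*, *Plxnd1*, *Plxna2*, *Sema3c* and *Sema3e* are guide genes of the mesenchymal clusters.

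Of 33 ratios of members between old and young cells that lay within 2-fold over all 6 populations, 14 turned in sign as a mean over cells, with size factors, with thinned cells or in a library-number range, so such ratios are not read as changes. In MSC-L, the members that passed the count filter were within 2-fold. *Vegfa* went from 197 to 162 CPM (log2 ratio -0.28), *Vegfc* from 384 to 307 (-0.32), *Pgf* from 67.5 to 88.4 (0.38), *Vegfb* from 26.2 to 39.5 (0.58), *Nrp1* from 711 to 854 (0.26) and *Nrp2* from 336 to 439 (0.38). Of 6 members that passed the filter 0 were at least 2-fold apart, where 25.4% of all genes were. *Flt4*, which did not pass, had 1 count in young and 50 in old MSC-L. In range 2 alone *Pgf* was apart, at 49.1 CPM in young and 108 in old cells, and in range 1 it was 100.2 and 51.8. In ranges 1 and 2 the ratio was 0.55 and -0.57 for *Vegfa*, -0.35 and 0.51 for *Nrp1* and -0.12 and 1.00 for *Vegfb*, so their directions turned, and size factors gave 0.02 for *Vegfa*. The MSC-L of the 2 ages lay mainly in the same clusters but in different shares. M1 held 39 of 53 young and 33 of 58 old cells, and M2 held 12 and 23. These clusters differed in *Vegfc* (389 and 183 CPM in M1 and M2) and *Nrp2* (336 and 602). Size factors moved the median over all genes by 0.20, and the part of higher genes among those apart from 54.6% to 66.7%. Of all genes 13.9% were higher and 11.5% lower. Of the pathway lists, 0 of 9 maturation genes were higher and 3 lower, of 9 regulators 1 and 1, of 6 neuropilin partners 0 and 1, of 8 oxygen sensing genes 1 and 1, of 5 response genes 1 and 2, and of 27 signalling genes 0 and 4, with *Hras*, a Ras GTPase, at 82.2 CPM in young and 10.5 in old cells. *Nr4a1*, an early response gene, fell from 171 to 16.6 CPM and *Rcan1* from 85.4 to 8.77, while *Itgb3*, the integrin β3 that associates with VEGFR2, went from 21.4 to 123. *Ccbe1* had 172 CPM in young and 225 in old MSC-L. *Figf* was apart downward, at 6.88 CPM in young and 2.62 in old MSC-L (log2 ratio -1.12).

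In MSC-S, *Vegfa* was higher in old cells, at 134 against 62.6 CPM (log2 ratio 1.09, interval 1.03 to 1.17), and was carried by 66.1% of old (52.6% to 77.9%) against 47.5% of young cells (34.3% to 60.9%). *Nrp1*, at 205 against 105 CPM (0.96), and *Nrp2*, at 123 against 62.1 (0.97), lay just inside 2-fold. *Vegfb* (-0.64), *Vegfc* (-0.69), *Flt1* (-0.56) and *Pgf* (-0.16) were within it, but *Vegfb* was apart downward as a mean over cells (-1.10), with size factors (-1.30) and with thinned cells (-1.03). That made 1 of 7 members, where 19.7% of all genes were apart. The *Vegfa* ratio was 0.29 in range 1 and 1.19 in range 2, 0.81 as a mean of CPM over cells, 0.67 with size factors and 0.92 with cells thinned to 100000 counts, so under those 3 alternatives *Vegfb* was the 1 member apart and *Vegfa* was not. In range 1 alone *Nrp1* (73.9 to 200 CPM) and *Nrp2* (60.7 to 192) were apart upward and *Vegfb* (8.13 to 1.82) and *Vegfc* (62 to 23.4) downward. The MSC-S of the 2 ages also differed in their shares of the clusters: M9 held 0 of 59 young and 10 of 59 old MSC-S, M15 5 and 0, M12 13 and 10, and M16 14 and 21. *Vegfa* was 197 CPM in M9 and 38.2 in M15, and between young and old cells it was 39.6 and 168 in M12 and 114 and 68.1 in M7. These are levels of whole clusters. M9 and M7 held MSC-S alone, but M15 held 5 MSC-S beside 5 OPr and 7 mOPr, and M12 23 MSC-S beside 4 mOPr. Markers of other cells moved between the ages of MSC-S as well: those of MSC-L from 548 to 1209 CPM (6 of 6 with counts, *Cxcl12* the most abundant), of osteolineage cells from 1028 (7 of 7, *Spp1*) to 189 (7 of 7, *Ibsp*) and of chondrocytes from 532 (4 of 5, *Acan*) to 120.1 (5 of 5, *Sox9*). Their part in the *Vegfa* result was not tested. *Figf* was 6.80 CPM in young (5.96 to 7.73) and 34.2 in old MSC-S (32.4 to 36.1), carried by 7 and 17 of 59 cells, the old value being the highest of *Figf* among the 12 groups. *Plxnd1* was 4.05 and 25.0 CPM, among 2 of 11 neuropilin partners higher and 3 lower. Of 8 response genes 4 were higher and 0 lower (median 0.83, against -0.06 over all genes, of which 8.65% were higher and 11.1% lower), of 10 maturation genes 1 and 1, of 27 signalling genes 0 and 1, of 9 oxygen sensing genes 0 and 2, and of 9 regulators 0 and 0.

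OPr and mOPr of the 2 ages differed in which cells they held. Of the old OPr, 10 of 29 cells lay in clusters M1 and M2, the clusters of MSC-L identity, against 3 of 44 young cells, and of the old mOPr 14 of 26, against 2 of 26. The 6 marker genes of MSC-L, all with counts and with *Cxcl12* as the most abundant, summed to 5589 CPM in young and 22695 in old OPr and to 998 in young and 21133 in old mOPr. Chondrocyte markers (5 of 5 with counts, *Col2a1* the most abundant) summed to 30789 CPM in young and 923 in old OPr, and hematopoietic markers to 136 in young (13 of 15 with counts, *Arhgdib* the most abundant) and 5283 in old OPr (15 of 15, *Lyz2*). In mOPr the chondrocyte markers went from 2315 CPM in young to 77 in old cells (5 of 5 with counts in both, *Col2a1* and then *Sox9* the most abundant). Pericyte and smooth muscle markers went from 786 (6 of 7 with counts, *Cspg4* the most abundant) to 2364 CPM (7 of 7, *Acta2*) in OPr and from 516 (6 of 7, *Cspg4*) to 2337 (7 of 7, *Acta2*) in mOPr. The part of cartilage, pericyte and smooth muscle markers in the results for OPr and mOPr was not tested. For both populations the levels are also given inside and outside M1 and M2, a split chosen after seeing the data. *Vegfc* and *Nrp1* are guide genes of the mesenchymal clusters, so for these 2 genes the split selects in part on their own levels.

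In OPr, *Vegfc* was 37 CPM in young and 138 in old cells (log2 ratio 1.87) and *Nrp2* 104 and 355 (1.77). *Nrp1* (158 and 219 CPM, 0.46), *Pgf* (28.5 and 22.5, -0.33), *Vegfb* (0.17) and *Vegfa* (0.08) were within 2-fold. Of 6 members 2 were apart, where 45.2% of all genes were. *Vegfc* was found almost only in the cells of M1 and M2: there it was 354 CPM in 3 young and 305 in 10 old cells, and outside them 0.228 in young (0.0838 to 0.497) and 1.78 in old cells (1.10 to 2.73). *Nrp2* was 72.8 CPM in young and 103 in old OPr outside M1 and M2, a log2 ratio of 0.50. The members apart there were *Nrp1*, at 50.3 and 6.71 CPM (-2.74), and *Pgf*, at 8.03 and 1.36 CPM (-1.94), which was carried by 1 cell of each age. The 19 old OPr outside M1 and M2 include the 8 cells with 7 or more hematopoietic markers. The 11 others had 186 CPM of *Nrp2*, carried by 5 of them, 11.5 of *Nrp1* and 2.34 of *Pgf*. Over all OPr without those 8 old cells the ratios were 2.29 for *Vegfc* and 2.18 for *Nrp2*. Cells of OPr identity by cluster gave a *Vegfc* ratio of -2.07, opposite in sign, and an *Nrp2* ratio of 0.11, and by that identity *Nrp1* (-1.63) was apart downward and *Pgf* (1.77) upward. Size factors gave 0.29 for *Nrp2*, and *Nrp1* (-1.27) and *Vegfb* (-1.04) were then apart downward. Leaving out the highest cell of each age gave 2.63 for *Vegfc* and -1.12 for *Vegfb*. In ranges 1 and 2 the ratios were 0.54 and 6.91 for *Vegfc* and 1.21 and 2.43 for *Nrp2*, and *Pgf* was apart in both, at -3.41 and 1.40. Of 10 maturation genes 4 were higher and 1 lower, with *Plau*, the urokinase gene, going from 5.59 to 117 CPM and *Adamts3* from 49.1 to 4.21. Of 8 oxygen sensing genes 5 were higher and 0 lower (median 1.10, against 0.14 over all genes, of which 25.6% were higher and 19.6% lower), of 28 signalling genes 8 and 2, and of 10 regulators 3 and 1. Of 10 neuropilin partners 3 were higher and 5 lower, among them *Sema3e* (72.9 to 0.187 CPM) and *Sema3d* (167 to 4.54), and of 9 response genes 3 and 3, with *Cxcr4* at 0.0682 and 89.6 CPM. All values of list genes here are over all OPr, including the 8 old cells with hematopoietic markers and the cells of M1 and M2. The part of those cells in the list genes, *Cxcr4* and *Plau* among them, was not tested.

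In mOPr, *Nrp1* was 34.7 CPM in young and 446 in old cells (log2 ratio 3.65), *Pgf* 21.9 and 107 (2.24), *Vegfb* 11.0 and 43 (1.88), *Vegfc* 23.9 and 87.9 (1.84) and *Vegfa* 51.7 and 168 (1.68), while *Nrp2* was 309 and 231 (-0.42). Of 6 members 5 were apart, where 44.5% of all genes were. Inside M1 and M2, the 14 old mOPr had 795 CPM of *Nrp1*, 167 of *Vegfc* and 247 of *Vegfa*, and their *Nrp1* lay between that of young and old MSC-L. Outside those clusters, *Nrp1* was 32.4 CPM in 24 young and 58.2 in 12 old cells (log2 ratio 0.83), *Vegfa* 49.3 and 79.7 (0.68), *Vegfb* 11.5 and 28.9 (1.26), *Vegfc* 20.6 and 0.338 (-4.01) and *Nrp2* 269 and 312. *Pgf*, at 0 counts in those 24 young cells (an upper limit of 0.266 CPM), was 83.9 CPM in the 12 old cells, 3 of which carried it. There *Pgf* had a log2 ratio of 6.41 but did not pass the count filter, so it was not called. Among members that passed it, those apart outside M1 and M2 were *Vegfb* upward and *Vegfc* downward, both from few cells. *Vegfb* was carried by 6 of 24 young and 2 of 12 old cells, and *Vegfc* by 2 of 24 and 0 of 12. In ranges 1 and 2 the ratios were 4.02 and 3.34 for *Nrp1*, 1.40 and 1.87 for *Vegfa*, 0.66 and 3.71 for *Vegfb*, 2.66 and 1.23 for *Vegfc* and -0.027 and 7.19 for *Pgf*, whose young counts came from 1 cell of range 1. The *Pgf* ratio was 6.39 without the highest cell of each age, 1.23 as a mean over cells, 1.37 with size factors and 1.19 with thinned cells. *Plxnd1* (5.28 to 293 CPM), *Plxna2* (73.1 to 310.0) and *Epas1* (152 to 1004) were higher in old mOPr, and *Sema3e* (209 to 0.481), *Sema3d* (301 to 19.9) and *Sema3c* (237 to 21.9) lower. In lists, 2 of 11 neuropilin partners were higher and 7 lower (median -3.02, against 0.11 over all genes, of which 24.7% were higher and 19.8% lower), of 8 oxygen sensing genes 3 and 1, of 10 maturation genes 3 and 1, of 27 signalling genes 4 and 6, of 10 regulators 1 and 2, and of 7 response genes 1 and 3. *Ccbe1* was 0.960 CPM in young and 71.1 in old mOPr. These values of list genes are over all mOPr, without a split by M1 and M2. *Plxnd1*, *Plxna2*, *Epas1*, *Ccbe1*, *Sema3c* and *Sema3e* are guide genes of the mesenchymal clusters. The part of the cells of M1 and M2 in the list genes was not tested.

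In AEC, the receptors were within 2-fold between young and old cells of all ranges together. *Flt1* was 1630.5 CPM in young and 1576 in old AEC (log2 ratio -0.05), *Nrp1* 935 and 879.8 (-0.09), *Flt4* 169 and 186 (0.14), *Vegfc* 278 and 305 (0.13), *Nrp2* 244 and 204 (-0.26), *Vegfb* 5.51 and 6.34 (0.17), *Kdr* 784 and 531 (-0.56) and *Vegfa* 36.4 and 64.8 (0.81). *Pgf*, at 37.7 and 78.1 CPM (1.03), was the 1 of 9 members apart, where 21.1% of all genes were. That call rested on 1 old cell with 3983 CPM of *Pgf*. Without the highest cell of each age the ratio was -1.80, by cluster identity it was -2.20, in ranges 1, 2 and 3 it was -0.92, 2.19 and -5.84, as a mean over cells 0.46, with size factors 0.63 and with thinned cells 0.51. *Kdr* and *Vegfa*, within 2-fold over all ranges together, differed between ranges: *Kdr* was 718 and 187 CPM in range 1 (log2 ratio -1.93), 755 and 619 in range 2 and 969 and 723 in range 3, and *Vegfa* was 20.1 and 72.4, 55.9 and 64.9, and 7.11 and 54. *Nrp2* was also apart in range 1 (-1.14), *Vegfb* in range 2 (1.43) and *Flt4* in range 3 (-1.11). With thinned cells *Vegfa* was the 1 member apart (1.07). The AEC of the 2 ages lay mainly in the same clusters but in different shares: E3 held 24 of 84 young and 34 of 82 old AEC. In range 1 it held 6 of 20 and 13 of 20. Range 2 had 15 of 40 and 16 of 39 in E3, and range 3 had 3 of 24 and 5 of 23. Of all young and old AEC, E4 held 26 and 27, E6 8 and 2, and E7 2 and 0. Cluster E3 had 272 CPM of *Kdr* in young and 116 in old cells and 66.7 and 117 of *Vegfa*, and E4 1031 and 898 of *Kdr* and 13.9 and 13.2 of *Vegfa*. Sinusoidal markers summed to 1275 CPM in young (4 of 5 with counts) and 804 in old AEC (5 of 5). Most of that was *Il6st*, at 1017 and 786 CPM, which also had 283 to 528 CPM in the mesenchymal groups. Of the 5 markers, 3 reached 10 CPM in young and 1 in old AEC. The part of these markers in the values of *Kdr* was not tested. Of 28 signalling genes 0 were apart (median -0.02, against -0.03 over all genes). Of 12 response genes 5 were lower and 0 higher (median -0.83), with *Esm1* at 67 CPM in young and 11.5 in old AEC, and of 11 neuropilin partners 4 were higher and 1 lower. Among the 4 were *Sema3c* (0.746 to 15.9 CPM), *Sema3d* and *Sema3e*, which were mesenchymal in the young comparison. Mesenchymal markers summed to 2566 CPM in young and 3204 in old AEC (10 of 10 with counts in both, *Cxcl12* the most abundant), 1 young and 4 old AEC carried fewer than 3 endothelial markers, and the part of such cells in these 3 genes was not tested. Of 8 maturation genes 0 were higher and 2 lower, of 12 regulators 1 and 0, and of 8 oxygen sensing genes 1 and 0, where 9.33% of all genes were higher and 11.7% lower.

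In SEC, *Kdr* (1535 and 1581 CPM, log2 ratio 0.04) and *Nrp2* (591 and 607, 0.04) were at like levels in young and old cells. *Nrp1* was 642 and 735 CPM (0.20), *Vegfa* 34.8 and 36.3 (0.06), *Vegfb* 46.7 and 50.1 (0.10), *Vegfc* 22.3 and 39.3 (0.79), *Flt4* 1796 and 1480.3 (-0.28) and *Flt1* 662 and 1042 (0.65). *Pgf*, at 4.24 and 12.8 CPM (1.40), was the 1 of 9 members apart, where 20.7% of all genes were, with 2 young and 3 old cells carrying it. Without SEC that had fewer than 7 endothelial markers, a choice made after seeing the data, its ratio was 0.91. *Vegfc* was apart with size factors (1.10) and with the highest cell of each age left out (1.08). Size factors moved the median over all genes by 0.15, and the part of higher genes among those apart from 63.4% to 73.7%. Arterial markers were higher in old than in young SEC. The 6 genes, all with counts and with *Sema3g* as the most abundant, summed to 43.5 CPM in young and 667 in old SEC. At least 3 of them were carried by 1 of 70 young and 11 of 71 old SEC. Without those cells *Flt1* was 646 CPM in young and 904 in old SEC, *Vegfc* 22.5 and 26.3, *Flt4* 1809 and 1705, *Kdr* 1537 and 1647 and *Nrp1* 633 and 669.

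SEC can also be divided by their cluster. In cluster E7, of sinusoidal identity, lay 59 of 70 young and 44 of 71 old SEC. There *Flt4* was 2035 CPM in young (2014 to 2056) and 2100.2 in old cells (2075 to 2125), *Kdr* 1665 and 1812, *Flt1* 718 and 1019 and *Vegfc* 5.83 and 12.2. Outside E7 the 11 young SEC had 699 CPM of *Flt4*, 940.1 of *Kdr* and 98.4 of *Vegfc*, and the 27 old SEC 454, 1198 and 84.2. *Flt4* and *Vegfc* are guide genes of the endothelial clusters, so choosing the cells of E7 selects in part on their own levels, and these values do not tell whether they changed with age in sinusoidal cells. *Flt1* and *Kdr* are not guide genes. Summed arterial markers were 40.0 CPM in young and 10.4 in old SEC of E7, and 59.5 and 1753 outside it, where summed mesenchymal markers were 30453 in young and 9597 in old cells. Their part in the differences of *Flt1*, *Flt4* and *Vegfc* was not tested. Pathway genes at least 4-fold apart with at least 1000 counts were *Itgb3* (4.47 to 186 CPM), *Efnb2* (15.6 to 89.8), *Sema3g* (20.9 to 265) and *Pcsk5* (10.9 to 96.0). *Efnb2* and *Sema3g* are also among the 6 arterial markers summed above, so their values repeat that difference. The part of SEC with arterial markers in these pathway genes was not tested. Of 12 regulators 2 were higher and 0 lower, of 28 signalling genes 1 and 1, of 8 neuropilin partners 1 and 0, of 9 maturation genes 2 and 1, of 7 oxygen sensing genes 2 and 0, and of 11 response genes 4 and 2, where 13.1% of all genes were higher and 7.56% lower.

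The study's ICGS clusters, groups of cells that the study made from correlated guide genes, resolve the members further. They are a description, since *Vegfc* and *Nrp1* are guide genes of the mesenchymal clusters and *Vegfb*, *Vegfc* and *Flt4* of the endothelial ones. Of the AEC-like clusters, E3 (60 cells) had 486 CPM of *Vegfc*, 96.2 of *Vegfa* and 1359 of *Flt1* with 179.5 of *Kdr* and 12.4 of *Nrp2* (11.1 to 13.8), and E4 (59 cells) had 225, 13.5, 1914, 959 and 330.1 CPM of the same genes. E3 was thus the endothelial cluster rich in VEGF-C and poor in VEGFR2 and neuropilin 2. Arterial cluster E5 (37 cells) had 1913 CPM of *Flt1*, 1260 of *Nrp1* and 90.3 of *Flt4*. *Pgf* reached 220 CPM there from 1 of 37 cells. The transitional cluster E6 (24 cells) had 544 CPM of *Flt4*, with 215.5 in E4 and 2060 in E7 (105 cells), and 1442 of *Flt1*, below E4 (1914) but above E3 and E7 (840). Its *Vegfc* was low, at 0.254 CPM. *Vegfb* was highest in E7 among E3 to E7, at 58.4 CPM, and lowest in E3, at 1.81. The 8 pericytes of E2 had little receptor, with 123 CPM of *Flt1* and 22.2 of *Kdr*, and the 14 cells of E1, named as mesenchymal and endothelial doublets by the study, had 665 CPM of *Kdr* and 673 of *Flt4* beside 153 of *Vegfc*.

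Among mesenchymal clusters, *Vegfc* was 389 CPM in M1 (86 cells) and 183 in M2 (50 cells), and at most 52 in the other mesenchymal clusters of at least 5 cells. *Nrp1* was also highest in M1 and M2, at 784 and 679 CPM, followed by the small clusters M6 (529) and M8 (491), against 7.66 in M4 and 0.331 in M15. *Nrp2* had the opposite order in that pair, 336 CPM in M1 and 602 in M2. *Vegfa* was highest in M3 (16 cells, 15 of them young), at 310 CPM (299 to 321), where *Vegfc* was 0.279, *Vegfb* 0.651 and *Pgf* had 0 counts. M3 and M4 both belong to the OPr-like clusters, and *Vegfa* was 41.3 CPM in M4. Osteoprogenitor cluster M5 (65 cells) had 104 CPM of *Vegfa*, 9.22 of *Vegfc* and 215.1 of *Nrp2*, and its *Vegfa* was 52.3 in 31 young and 145 in 34 old cells. M5 held 14 young and 15 old OPr, 7 and 12 mOPr, and 8 and 5 MSC-S. The 8 old OPr with 7 or more hematopoietic markers were among the old OPr of M3, M4 and M5. Old OPr outside M1 and M2 had 174 CPM of *Vegfa*, and 139 without those 8 cells. The part of such cells and of the mix of sorts in the M5 values was not tested. In M16 (36 cells), an MSC-S-like cluster, *Vegfa* was 15.1 CPM in 15 young and 120.5 in 21 old cells.

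**Figure D3:**
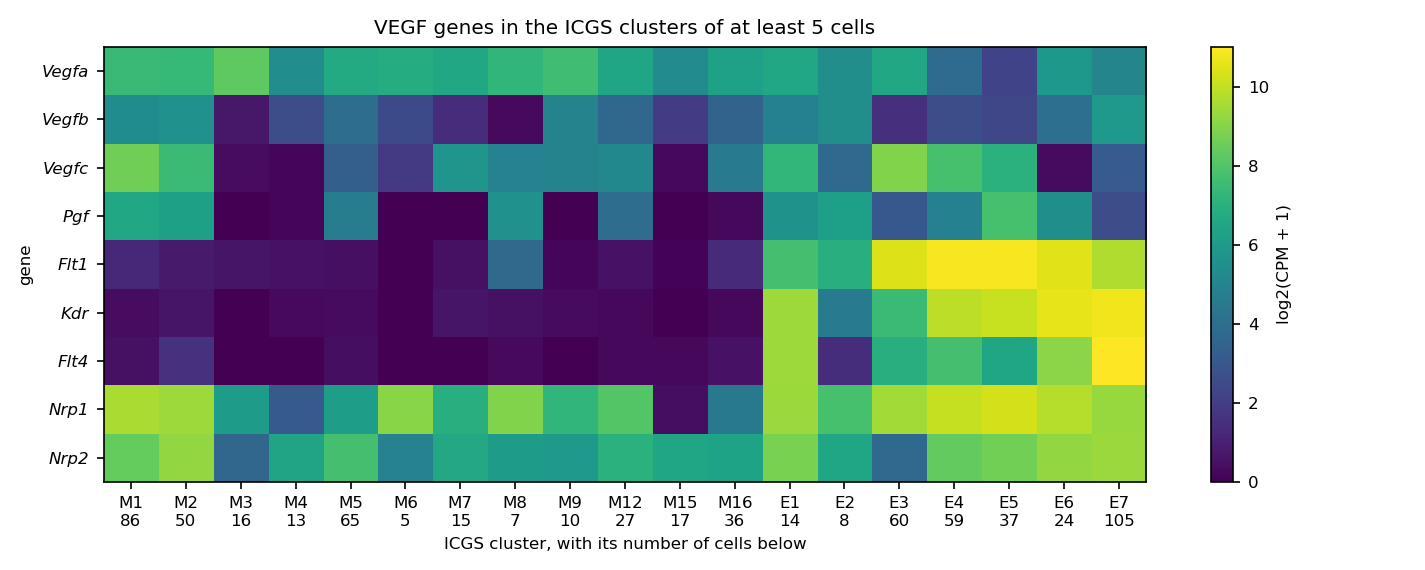
Levels of the 9 genes (rows) in the ICGS clusters of at least 5 cells (columns, number of cells below each name), coloured by log2 of CPM plus 1 over both ages. *Vegfc* is high in M1 (389 CPM) and E3 (486 CPM), *Vegfa* in M3 (310 CPM), and *Flt4* in E7 (2060 CPM).

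Genes whose pattern over the 12 groups was most like that of a member, by Pearson's r on log2 of CPM plus 1 among 13340 genes with at least 1000 counts, were mostly endothelial for the receptors. For *Kdr* they were *Gimap4*, *Robo4* and *Btnl9* (r from 0.999 to 1.00), for *Flt1* they were *Ptprb*, *Adgrl4* and *Cd247* (0.996 each), and for *Flt4* they were *Exoc3l2* (0.997), *Nr5a2* (0.991) and *Naip5* (0.991). For *Nrp1* they were *Slc35b3* (0.958), *Ifi35* (0.942) and *N4bp1* (0.941), and for *Nrp2* *Fam134c* (0.965), *Chst15* (0.954) and *Gm37233* (0.938). Of the ligands, *Vegfa* was most like *Gpc4* (0.935), *Sytl2* (0.906) and *Pgm2* (0.905), *Vegfb* like *Trappc9* (0.926), *Snx33* (0.923) and *Cracr2a* (0.922), *Vegfc* like *Tspan8* (0.940), *Ralgapa1* (0.938) and *RP24-360B3.2* (0.936), and *Pgf* like *Yme1l1* (0.934), *Usp54* (0.916) and *Gm37738* (0.909). The 12 groups share mice and sorts and were searched over many genes, so these are the nearest patterns and no more.

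The promoters of the 3 receptors are shown because these genes moved together between endothelial and mesenchymal cells. Each stretch is the 250 bases before the start of the gene in RefSeq on GRCm38.p6, read on the gene's own strand: *Flt1* at chr5:147726012-147726261 and *Kdr* at chr5:75978456-75978705, both on the minus strand, and *Flt4* at chr11:49609429-49609678 on the plus strand. In the GENCODE M21 annotation *Flt4* starts earlier, at 49609263, so its stretch lies inside the gene by that annotation. Capitals mark GGAA, the core bound by ETS factors, TGACGTCA, the cyclic AMP response element, and TATAAA, the TATA box, searched on both strands, with no overlap between motifs.
Flt1: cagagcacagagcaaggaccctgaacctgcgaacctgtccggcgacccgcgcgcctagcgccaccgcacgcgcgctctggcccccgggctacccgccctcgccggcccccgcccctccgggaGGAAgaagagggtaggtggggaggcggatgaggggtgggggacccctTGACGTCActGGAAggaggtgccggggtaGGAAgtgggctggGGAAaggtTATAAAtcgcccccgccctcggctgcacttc
Kdr: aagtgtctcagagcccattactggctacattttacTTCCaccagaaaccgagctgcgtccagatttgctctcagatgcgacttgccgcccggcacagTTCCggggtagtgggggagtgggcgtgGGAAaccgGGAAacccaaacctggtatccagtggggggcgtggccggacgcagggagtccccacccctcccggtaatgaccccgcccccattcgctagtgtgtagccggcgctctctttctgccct
Flt4: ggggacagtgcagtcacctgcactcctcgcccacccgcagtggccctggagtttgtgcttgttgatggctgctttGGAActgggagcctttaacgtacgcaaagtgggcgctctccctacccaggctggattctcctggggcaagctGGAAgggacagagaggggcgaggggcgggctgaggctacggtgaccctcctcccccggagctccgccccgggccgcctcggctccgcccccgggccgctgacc
GGAA in either orientation was found 4 times in *Flt1*, 4 times in *Kdr* and 2 times in *Flt4*, and 93.4% of 32851 promoter stretches of that length held it. TGACGTCA and TATAAA were each found 1 time in *Flt1* and not in the others, where 1.55% and 12.4% of all stretches held them. GATA, the core bound by GATA factors, was found 1 time in *Kdr* (53.6% of all stretches), and ACGTG, the core of hypoxia response elements, in none of the 3 and 1 time before 1 of the 2 starts of *Vegfa* (16.6%). That *Vegfa* stretch, at chr17:46025164-46025413, lies inside the gene, which spans 46016993 to 46032369 in the GENCODE M21 annotation. The stretch before the other start, at chr17:46032378-46032627, held 0 matches to ACGTG. A match is a run of letters and says nothing of binding. All 9 members had a promoter in that table, and *Vegfa* and *Pgf* had 2 starts each. GC made up 70.4% of the stretch in *Flt1*, 61.6% in *Kdr* and 68.4% in *Flt4*. Counts were made without strand. Exons of the members overlapped no other annotated exons except those of *Nrp1*, which hold the microRNA gene Mir1903.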

How the data were processed

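The measurements are plate-based RNA sequences of 661 single cells, sorted from the marrow stroma of young and old mice into 6 populations. The authors deposited raw HTSeq counts per gene and cell, and their notes state alignment with GSNAP version 2015-09-29 to GRCm38.p4 and counting with HTSeq without regard to strand. The count table had 46078 lines, and 270 with a repeated symbol were merged with their namesakes. Counts of 37 mitochondrial genes were left out of the totals, which left 45771 nuclear genes.

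Groups were the sorted population and age in the labels, and clusters came from a supplementary table of the paper. Counts were summed over the cells of a group and scaled to the same total (CPM). Poisson and Clopper-Pearson intervals were exact at 95%, and log2 ratios used a pseudocount of 1 CPM. In 9 comparisons a gene was called apart at 2-fold or more, among genes that reached 100 counts and had them in 5 cells or more, and no test was made, because the labels name no mouse. Total counts per cell ranged from 58034 to 1503374, and a count of 0 bounds a level at the upper Poisson limit.

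The alternatives were CPM averaged over cells, size factors by median of ratios (333 genes), cells thinned to 100000 counts (7 shallower cells left out), a pseudocount of 0.1, no filter, each library-number range alone, populations weighted equally, cluster identity in place of the sort, detection at 1 count, and leaving out the highest cell, cells with 7 or more hematopoietic markers or cells with 7 or more markers of the other lineage. These and the comparisons were fixed before the values given here were computed. Leaving out clusters M1 and M2, endothelial cells with few endothelial markers, and SEC with at least 3 of 6 arterial markers was chosen after seeing the data. The members, chosen by symbol, and the gene lists were chosen with earlier results of these data known. Named genes were the members and, of the lists, genes at least 4-fold apart with at least 1000 counts, at most 3 per list, comparison and direction, with *Ccbe1* and *Adamts3* beside *Vegfc* and the 3 genes most correlated with each member over the groups. A few further list genes were named after their values were seen. Recovery of log2 ratios and coverage of their counting intervals were checked on simulated counts. Those counts varied independently between cells, and the 2-fold calls themselves were not checked. Figures were drawn with matplotlib 3.10.9, and values were computed in Python 3.11.15 with scipy 1.17.1, pandas 2.3.3 and numpy 2.4.6.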

Additional observations from a re-analysis of the deposited data

How the results depend on the processing

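Of 101 counts of members apart under an alternative, 84 stayed within 1.5 times the value reported and 17 moved. A like count need not be made of like genes: in 63 of the 84 the genes and their directions were those reported, and in 21 they were not. Of 291 log2 ratios of called members, 262 kept their direction and stayed at 2-fold or more, 22 fell under 2-fold and 7 reversed. For old against young OPr the count of 2 stayed within 1.5 times under every alternative run, but *Vegfc* and *Nrp2* did not both remain apart upward with size factors (*Vegfb*, *Vegfc*, *Nrp1*), in range 1 (*Pgf*, *Nrp2*), by cluster identity (*Vegfc*, *Pgf*, *Nrp1*) or without M1 and M2 (*Pgf*, *Nrp1*). For MSC-S the count of 1 was *Vegfb* downward in place of *Vegfa* upward with the mean of CPM over cells (-1.10), size factors (-1.30) and thinned cells (-1.03), and for AEC it was *Vegfa* in place of *Pgf* with thinned cells (1.07). The counts for endothelial against mesenchymal cells (6), AEC against SEC (6) and MSC-L against other mesenchymal cells (5) also stayed within 1.5 times under every alternative run. Their genes changed with size factors (without *Nrp1* and *Nrp2* in the first and *Nrp2* in the last), by range (ranges 1 and 2 with *Vegfb* and *Vegfc* in place of *Nrp2* in the first, range 3 with *Vegfa* in place of *Nrp2* in the second, range 1 without *Vegfa* in the last), and for AEC against SEC also by the gain of *Kdr* without cells with markers of the other lineage, without the highest cell or without cells with few endothelial markers. For MSC-L with age, 0 became 1 with no filter (*Flt4*) and 1 in range 2 (*Pgf*). For MSC-S, 1 became 4 in range 1 (*Vegfb*, *Vegfc*, *Nrp1*, *Nrp2*), 2 without the highest cell of each side (*Vegfa*, *Nrp2*) and 2 by cluster identity (*Vegfa*, *Nrp1*). For mOPr, 5 became 3 in range 1 (*Vegfa*, *Vegfc*, *Nrp1*) and 2 without clusters M1 and M2 (*Vegfb* up, *Vegfc* down), a choice made after seeing the data. Without M1 and M2, *Pgf* in mOPr no longer passed the count filter although its log2 ratio was larger (6.41, against 2.24). For AEC, 1 became 0 with the mean of CPM over cells and with size factors, 3 in range 1 (*Vegfa*, *Kdr*, *Nrp2*), 2 in range 2 (*Vegfb*, *Pgf*) and 3 in range 3 (*Vegfa*, *Pgf*, *Flt4*). For SEC, 1 became 2 with size factors and without the highest cell (*Vegfc*, *Pgf*), and 0 by cluster identity and without cells carrying markers of the other lineage, where *Pgf* no longer passed the count filter although its log2 ratio was larger (3.57 and 3.18, against 1.40), and 0 without cells with few endothelial markers. The reversed log2 ratios were *Vegfc* in OPr by cluster identity (-2.07), *Vegfc* in mOPr without M1 and M2 (-4.01), *Pgf* in mOPr in range 1 (-0.027), and *Pgf* in AEC in range 1 (-0.92), in range 3 (-5.84), without the highest cell (-1.80) and by cluster identity (-2.20). Apart from the count filter, the cause was not tested. No paired analysis was possible because the labels do not link cells to mice. Depth limits what a count of 0 can say: 0 counts of *Flt1* or *Flt4* in young mOPr allow up to 0.253 CPM.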
